A study of Arabidopsis thaliana with 8 samples.

Results

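The 26S proteasome genes described here are the 50 genes of Arabidopsis thaliana whose identifiers belong to the subunits of the 20S core particle, PAA1 to PBG1, or of the 19S regulatory particle, the RPT and RPN subunits. They were taken from the normalized table by identifier, and are 50 of its 23632 genes. No measured value entered that step, but the members were chosen with earlier results of these data known. Of them 23 encode core subunits (12 alpha ring and 11 beta ring genes) and 27 encode regulatory subunits (10 RPT and 17 RPN genes). They fill 31 subunit positions, of which 19 are filled by a pair of paralogs. All 50 passed the minimum mean of 1 normalized read that was set for testing, and the lowest value of any of them in a library was 391 normalized reads, for PAF2. Names follow the usual Arabidopsis subunit nomenclature. For RPT4b, RPT6b, RPN3a, RPN3b, RPN8b, RPN9a, RPN9b, RPN11, PAB2 and PBE2 the reference annotation gives a family description rather than the subunit name.

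RNA-seq was performed on the terminal 1 mm of Col-0 roots, whose cell types were not separated. High temperature seedlings (HT) were moved to 30 °C at 5 days and harvested 48 h later, and control seedlings (CT) stayed at 22 °C for the same time. Both groups were wild type, on the same agar medium with sucrose under long days. The labels give 4 replicates per temperature, while the methods give 3, and each replicate pooled 50 seedlings from 5 plates. Since RNA of a whole tip was measured, fewer cells of a type and less RNA per cell cannot be told apart.

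The 26S proteasome degrades proteins that carry ubiquitin chains. Its core is a barrel of alpha rings, which gate the entry, around beta rings, which hold the proteolytic sites. The regulatory particle is built of a base, with a ring of RPT ATPases that unfold substrates, and a lid, which includes the deubiquitinase RPN11. In yeast and in plants the subunit genes are transcribed together, in Arabidopsis through the NAC factors NAC53 and NAC78, which bind promoter elements with a TGGGC core and raise subunit transcripts when proteasome activity is inhibited. In the root meristem proteasome function is known to be needed for growth, and mutants of RPT2a, for example, lose meristem organization.

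Depth was nearly equal, with 38216649 to 41833843 reads in genes in HT libraries and 38396646 to 40750937 in CT libraries. The DESeq2 size factors were nevertheless 1.03 to 1.14 in HT and 0.904 to 0.967 in CT. After division by them, the sum of all normalized reads in HT was 0.868 of that in CT. Root tip markers were present in every library, with summed levels of 7873 to 8288 normalized reads in HT and 7271 to 7770 in CT for the 5 genes PLT1, PLT2, WOX5, SCR and SHR. These genes moved in both directions. By log2 fold change PLT1 (0.91), WOX5 (2.33, at a mean of 6.09 normalized reads in CT) and PLT2 (0.26) were higher, and SCR (-0.17) and SHR (-0.31) lower. Of 3 genes of dividing cells, CYCB1;1 and KNOLLE were lower at both thresholds, as were 17.5% of all genes. CDKB2;1 (log2 fold change 0.07) did not pass the test. The summed level of these 3 genes was 2891 to 3109 in HT and 3874 to 4389 in CT. That of 4 genes of differentiated root cells (COBL9, EXPA7, CASP1 and VND7) was 7.02 to 131 in HT, where CASP1 in replicate 3 gave 94.3 of the 131, and 463 to 1055 in CT, and the root hair genes COBL9 and EXPA7 were both at 0 in 2 of the 4 HT libraries. The 2 green tissue markers RBCS1A and CAB1 summed to 10.3 to 17.2 in HT and 92.0 to 123 in CT, and the 2 lateral root cap markers SMB and BRN1 to 3129 to 3390 in HT and 2364 to 2783 in CT. The part of these cell-type differences in the proteasome results was not tested.

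Upstream sequences are shown first, because the subunit genes are thought to share a promoter element. In the 250 bases before the annotated gene start (RefSeq annotation, TAIR10.1), TGGGC was found on either strand in 24 of the 50 subunit genes (48.0%). It was found in 22.7% of 27443 nuclear protein-coding genes and in 25.7% of the 20499 of them tested here. Matches were counted in 3 of 10 RPT, 9 of 17 RPN, 5 of 12 alpha and 7 of 11 beta genes, and 18 subunit genes held 2 or more. The letters are also the first 5 of the site II element TGGGCY, so that the 2 motifs overlap. The paired heat shock element units GAANNTTC, a palindrome and therefore the same on both strands, were found in 6 subunit genes (12.0%) and in 9.55% of all genes. The following lines give the last 150 bases before the start of 3 paralog pairs whose balance shifted with temperature and whose windows hold no other gene, with matches to TGGGC or its reverse complement GCCCA in capitals and adjacent or overlapping matches run together.
RPN8a: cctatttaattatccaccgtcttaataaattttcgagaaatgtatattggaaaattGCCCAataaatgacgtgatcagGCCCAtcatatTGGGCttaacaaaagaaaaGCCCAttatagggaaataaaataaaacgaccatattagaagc
RPN8b: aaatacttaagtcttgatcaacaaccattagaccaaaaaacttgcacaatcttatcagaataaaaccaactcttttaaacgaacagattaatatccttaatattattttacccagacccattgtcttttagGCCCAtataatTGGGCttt
RPN1a: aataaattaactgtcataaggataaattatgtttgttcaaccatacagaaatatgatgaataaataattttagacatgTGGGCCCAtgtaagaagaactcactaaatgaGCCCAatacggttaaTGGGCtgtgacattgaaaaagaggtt
RPN1b: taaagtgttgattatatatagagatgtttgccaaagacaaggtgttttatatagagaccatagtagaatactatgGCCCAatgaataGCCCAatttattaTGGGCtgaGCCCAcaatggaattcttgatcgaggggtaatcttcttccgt
PAF1: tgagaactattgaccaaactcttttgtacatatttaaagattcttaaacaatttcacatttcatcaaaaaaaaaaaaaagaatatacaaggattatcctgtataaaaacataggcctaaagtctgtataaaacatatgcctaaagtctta
PAF2: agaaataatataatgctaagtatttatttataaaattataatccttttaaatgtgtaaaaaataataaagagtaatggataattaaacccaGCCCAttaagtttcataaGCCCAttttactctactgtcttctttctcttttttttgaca
These windows lie at chr5:1735575-1735724 on the plus strand (RPN8a), chr3:3528651-3528800 on the plus strand (RPN8b), chr2:8858812-8858961 on the plus strand (RPN1a), chr4:14072583-14072732 on the minus strand (RPN1b), chr5:17161157-17161306 on the minus strand (PAF1) and chr1:17318969-17319118 on the plus strand (PAF2). They hold 4 matches in RPN8a, 2 in RPN8b, 4 in RPN1a, 4 in RPN1b, 0 in PAF1 and 2 in PAF2. A match is a description of the letters and not of a bound site.

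All 50 subunit genes had a lower mean at high temperature than in the control on the deposited scaling, and 40 of the 50 had a negative log2 fold change under each of 2 other scalings, total-sum and quantile. In limma's fit over 21739 genes, 48 of 50 were lower at an adjusted p under 0.05, where 35.2% of all genes were, and 0 were higher, where 35.9% of all genes were. With the fold threshold of 0.58 on the log2 scale that the study used, 16 of 50 were lower, against 17.5% of all genes, and 0 were higher, against 20.0% of all genes. At an unadjusted p under 0.05, 0 were higher with limma, and edgeR and DESeq2 on the recovered reads also called 0 higher. In 48 of 50 genes every HT library lay below every CT library, against 32.7% of all genes. The median log2 fold change of the 50 genes was -0.44, which is 73.8% of the control level, and the range was -0.93 to -0.03, while the median over all tested genes was 0.01. The deposited FPKM (fragments scaled by gene length) carries the scaling by size factors rather than by reads per library. Summed over the 50 genes it was 4162 ± 93.3 in HT and 5642 ± 41.3 in CT (SD, n = 4 each), a ratio of 0.738. Summed over all genes the ratio of HT over CT was 0.847. The share of all reads in genes that fell in the 50 genes was 0.717 ± 0.0105% in HT and 0.844 ± 0.0034% in CT, a ratio of 0.850.

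**Figure D1:**
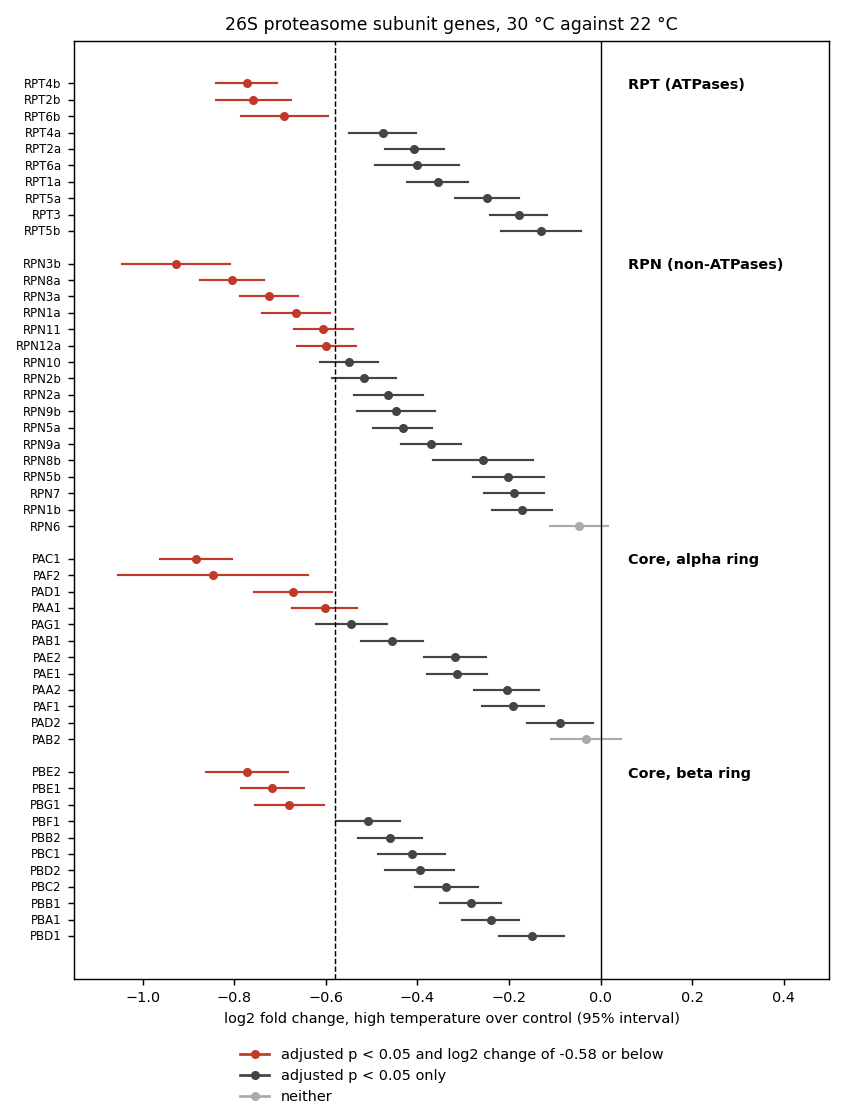
Log2 fold change of each of the 50 subunit genes, high temperature over control (x axis), with its 95% interval, by class and in order of the change within it; the dashed line is the fold threshold of -0.58. All 50 points lie below 0, from -0.93 for RPN3b to -0.03 for PAB2, and 16 lie at or below the threshold, on the deposited scaling; 10 of the 50 change sign under total-sum rescaling and 10 under quantile normalization.

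Because the library sums differ, the zero point of these changes depends on the scaling. When every library was rescaled to the same total, the median of all genes moved to 0.21 and that of the subunit genes to -0.24. The gap between the 2 medians was -0.45 and all 50 subunit genes were below the median of all genes, neither of which a factor per library can alter appreciably. On that scale 36 of 50 genes were lower and 3 (RPN6, PAB2 and PAD2) were higher at an adjusted p under 0.05. With the fold threshold kept, 4 genes were lower (RPN3b, RPN8a, PAC1 and PAF2), and 10 genes changed sign. Quantile normalization, which forces all libraries to the same distribution, gave a median of -0.02 for all genes and -0.24 for the subunit genes, a gap of -0.22, with 39 of the 50 below the median of all genes. There 36 genes were lower and 6 (RPT3, RPN1b, RPN6, RPN7, PAB2 and PAF1) were higher at an adjusted p under 0.05, and 6 were lower with the fold threshold (RPT2b, RPN3b, RPN8a, PAC1, PAF2 and PBE2).

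Among the more highly expressed genes, to which the subunit genes belong, the change also ran with the level of expression. Over all genes the log2 fold change had a median of 0.18 at 200 to 500 reads and -0.29 at 5000 to 10000 reads. Between the lowest and the highest mean of a subunit gene, 696 and 13742 normalized reads, the median log2 fold change of the 9002 genes was -0.09. Of these genes 17.1% were lower at both thresholds and 49.2% at adjusted p alone, and 47 of the 50 subunit genes lay below their median. Of 4 bands of level, chosen after the values were seen, the one of 2000 to 5000 reads held 18 subunit genes with a median of -0.38 and 2785 genes in all with a median of -0.15. At 5000 to 10000 reads the median was -0.54 for 23 subunit genes and -0.29 for 938 genes. Above 10000 reads it was -0.36 for 5 subunit genes (RPT1a, RPT3, RPN1a, RPN2a and RPN7) and -0.38 for 260 genes, and 2 of these 5 lay below the median of their band. Below 2000 reads it was -0.51 for 4 subunit genes and -0.03 for 5019 genes. From the lowest band to the highest, 14.0, 17.6, 26.7 and 35.8% of all genes were lower at both thresholds. Of the subunit genes 2 of 4, 3 of 18, 10 of 23 and 1 of 5 were. At adjusted p alone the shares of all genes were 42.1, 54.8, 64.4 and 72.3%, and the counts of subunit genes 4, 17, 22 and 5.

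**Figure D2:**
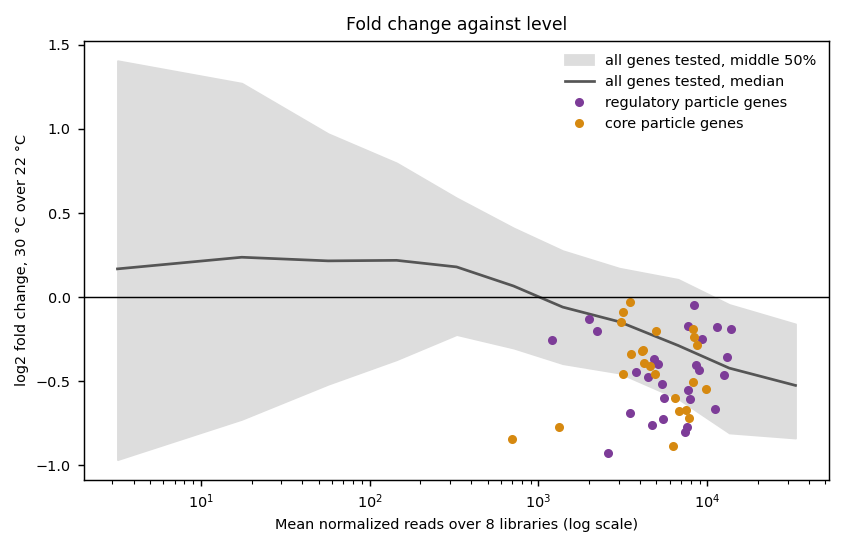
Log2 fold change, high temperature over control, against the mean normalized reads over the 8 libraries (log scale), with the median (line) and the middle 50% (grey) of all 21739 tested genes and the 50 subunit genes as points. The median of all genes falls to -0.29 at 5000 to 10000 reads, and 23 subunit genes at that level have a median of -0.54.

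On the deposited scaling all 10 RPT genes were lower at an adjusted p under 0.05, 3 of them also by the fold threshold, with a median log2 fold change of -0.40. Of all genes 35.2% were lower at the adjusted p and 17.5% also by the fold threshold. RPT4b (AT1G45000) had 5528, 5447, 5641 and 5811 normalized reads in the HT libraries, against 9458, 9805, 9595 and 9451 in the CT libraries. The groups did not overlap, and the log2 fold change was -0.77 ± 0.031 (SE, adjusted p = 7.6e-12, limma), the most negative of the ring. RPT5b (AT1G09100) had 1889, 1932, 1809 and 2009 normalized reads in HT, against 2109, 2116, 2003 and 2123 in CT. A value of 2009 in HT lay above the lowest CT library, and the log2 fold change of -0.13 ± 0.041 (SE, adjusted p = 0.011, limma) was the least negative of the ring. RPT2b (-0.76) and RPT6b (-0.69) were the other RPT genes past the fold threshold. RPT4a (-0.48), RPT2a (-0.41), RPT6a (-0.40), RPT1a (-0.36), RPT5a (-0.25) and RPT3 (-0.18) were lower by less. In the RPT2, RPT4 and RPT6 pairs the b paralog had the more negative value, and in RPT5 the a paralog had it.

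The other base subunits, RPN1 and RPN2, are large scaffold proteins, and RPN1 also docks shuttle receptors that bring ubiquitylated substrates. RPN1a (AT2G20580) had 8157, 8461, 8640 and 8942 normalized reads in HT, against 13591, 13640, 13058 and 13936 in CT, with a log2 fold change of -0.67 ± 0.035 (SE, adjusted p = 1.2e-10, limma). Its paralog RPN1b (AT4G28470) had 6993, 7263, 7259 and 7437 in HT, against 8188, 8321, 8060 and 8053 in CT, a log2 fold change of -0.17 ± 0.031 (SE, adjusted p = 0.00011, limma). Neither gene overlapped between the groups on the deposited scaling. RPN1b changed sign under total-sum rescaling (0.031) and under quantile normalization (0.085). RPN2a (-0.46) and RPN2b (-0.52) were lower at the adjusted p alone. RPN10, a ubiquitin receptor between base and lid that is needed for normal abscisic acid responses in Arabidopsis, had 6195, 6160, 6140 and 6429 normalized reads in HT, against 9116, 9298, 9007 and 9073 in CT. Its log2 fold change of -0.55 ± 0.030 (SE, adjusted p = 1.9e-10, limma) was just short of the fold threshold.

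The lid held both the largest and the smallest change of the regulatory particle. RPN3b (AT1G75990), a PCI-domain subunit, had 1564, 1762, 1807 and 1971 normalized reads in HT, against 3329, 3397, 3276 and 3475 in CT. With a log2 fold change of -0.93 ± 0.055 (SE, adjusted p = 6e-10, limma) it was at 52.6% of the control level, the lowest of the 50 on the deposited scaling. Under quantile normalization PAF2 (-0.93) was below RPN3b (-0.83). Its paralog RPN3a was also past the fold threshold (-0.72). RPN6 (AT1G29150), a lid scaffold that contacts the core in yeast, had 8244, 8397, 7963 and 8427 normalized reads in HT, against 8560, 8540, 8441 and 8571 in CT. The groups did not overlap, but the log2 fold change of -0.05 (95% interval -0.11 to 0.02, adjusted p = 0.17, limma) did not pass the test. RPN6 is the only gene at its position, and on the total-sum scale its value was 0.16.

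RPN11, the metalloprotease that removes ubiquitin chains from substrates, had 6102, 6234, 6218 and 6440 normalized reads in HT, against 9395, 9351, 9524 and 9757 in CT, a log2 fold change of -0.61 ± 0.030 (SE, adjusted p = 8.5e-11, limma). Its partner in the lid is RPN8. RPN8a (AT5G05780) had 5179, 5309, 5396 and 5605 in HT, against 9161, 9517, 9511 and 9347 in CT, with a log2 fold change of -0.80 ± 0.032 (SE, adjusted p = 7.3e-12, limma). RPN8b (AT3G11270), the paralog with far fewer reads, had 1153, 1052, 1032 and 1153 in HT, against 1284, 1373, 1250 and 1336 in CT, with a log2 fold change of -0.26 ± 0.051 (SE, adjusted p = 0.00033, limma). No HT library of RPN11, RPN8a or RPN8b reached a CT library. RPN12a, whose mutant has altered cytokinin responses, had 4344, 4419, 4506 and 4474 in HT, against 6723, 6891, 6587 and 6675 in CT. Its log2 fold change of -0.60 ± 0.030 (SE, adjusted p = 8.8e-11, limma) was past the fold threshold with limma and DESeq2 and not with edgeR. The remaining lid genes RPN9b (-0.45), RPN5a (-0.43), RPN9a (-0.37), RPN5b (-0.20) and RPN7 (-0.19) were lower at the adjusted p alone on the deposited scaling.

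In the core, alpha ring genes spanned almost the full range of the 50. On the deposited scaling 11 of 12 genes were lower at an adjusted p under 0.05 and 4 also by the fold threshold, with a median of -0.39. The shares over all genes were 35.2% and 17.5%. PAC1 (AT3G22110) encodes alpha 3, whose N-terminus is central to the gate in yeast. It had 4198, 4312, 4503 and 4543 normalized reads in HT, against 7753, 8374, 7971 and 8296 in CT, and a log2 fold change of -0.88 ± 0.037 (SE, adjusted p = 9.6e-12, limma). At the other end, PAB2 (AT1G79210) had 3458, 3319, 3398 and 3594 in HT, against 3479, 3657, 3434 and 3510 in CT. The groups overlapped, and its log2 fold change of -0.03 (95% interval -0.11 to 0.04, adjusted p = 0.43, limma) did not pass the test. Its paralog PAB1 (AT1G16470) had 4011, 4238, 4161 and 4197 in HT, against 5662, 5746, 5561 and 5803 in CT, with a log2 fold change of -0.46 ± 0.032 (SE, adjusted p = 3.4e-09, limma).

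Unequal paralogs were found at 3 further alpha positions. PAD1 (AT3G51260) had 5416, 5697, 5803 and 6274 normalized reads in HT, against 9426, 9048, 9237 and 9213 in CT (log2 fold change -0.67 ± 0.040 SE, adjusted p = 5.6e-10, limma). PAD2 (AT5G66140) had 3185, 3117, 2999 and 3000 in HT, against 3280, 3305, 3299 and 3195 in CT (log2 fold change -0.09 ± 0.034 SE, adjusted p = 0.029, limma). The PAD2 groups nearly met, with 3185 as the highest HT and 3195 as the lowest CT value, while those of PAD1 lay far apart. PAA1 (AT5G35590) had 4914, 5032, 5269 and 5326 in HT, against 7882, 7853, 7733 and 7719 in CT (log2 fold change -0.60 ± 0.033 SE, adjusted p = 2.2e-10, limma). PAA2 (AT2G05840) had 4485, 4620, 4544 and 4767 in HT, against 5162, 5196, 5414 and 5455 in CT (log2 fold change -0.20 ± 0.033 SE, adjusted p = 5e-05, limma). Neither PAA gene overlapped between the groups. PAF1 (AT5G42790) had 7497, 7562, 7697 and 7969 in HT, against 8892, 8789, 8459 and 8934 in CT (log2 fold change -0.19 ± 0.032 SE, adjusted p = 6.6e-05, limma). PAF2 (AT1G47250) had 391, 475, 586 and 551 in HT, against 894, 886, 925 and 857 in CT (log2 fold change -0.85 ± 0.097 SE, adjusted p = 1.2e-06, limma). PAF2, the least abundant of the 50 genes, varied among the HT libraries, but all 4 were below the CT libraries. PAD2 and PAF1 changed sign under total-sum rescaling (0.11 and 0.013) and under quantile normalization (0.040 and 0.079). PAG1 (-0.54), PAE2 (-0.32) and PAE1 (-0.31) were lower at the adjusted p alone.

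On the deposited scaling beta ring genes were all lower at an adjusted p under 0.05, 3 of 11 also by the fold threshold, with a median of -0.41. The shares over all genes were again 35.2% and 17.5%. The beta subunits PBA1, PBB and PBE carry the caspase-like, trypsin-like and chymotrypsin-like active sites. PBE2 (AT3G26340) had 942, 965, 982 and 1030 normalized reads in HT, against 1674, 1699, 1663 and 1658 in CT, with a log2 fold change of -0.77 ± 0.042 (SE, adjusted p = 2.1e-10, limma). Its paralog PBE1 was lower almost as much (-0.72), so both genes of the chymotrypsin-like subunit were past the fold threshold. PBA1 (AT4G31300) had 7638, 7662, 7707 and 7404 in HT, against 8842, 8959, 9128 and 8977 in CT, with a log2 fold change of -0.24 ± 0.029 (SE, adjusted p = 2.2e-06, limma). The trypsin-like PBB1 (-0.28) and PBB2 (-0.46) lay between. The least negative beta gene was PBD1 (AT3G22630), with 2955, 2970, 2934 and 2847 in HT, against 3139, 3273, 3254 and 3328 in CT and a log2 fold change of -0.15 ± 0.033 (SE, adjusted p = 0.00087, limma). PBG1 (-0.68) was past the fold threshold, and PBF1 (-0.51), PBC1 (-0.41), PBD2 (-0.39) and PBC2 (-0.34) were not.

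**Figure D3:**
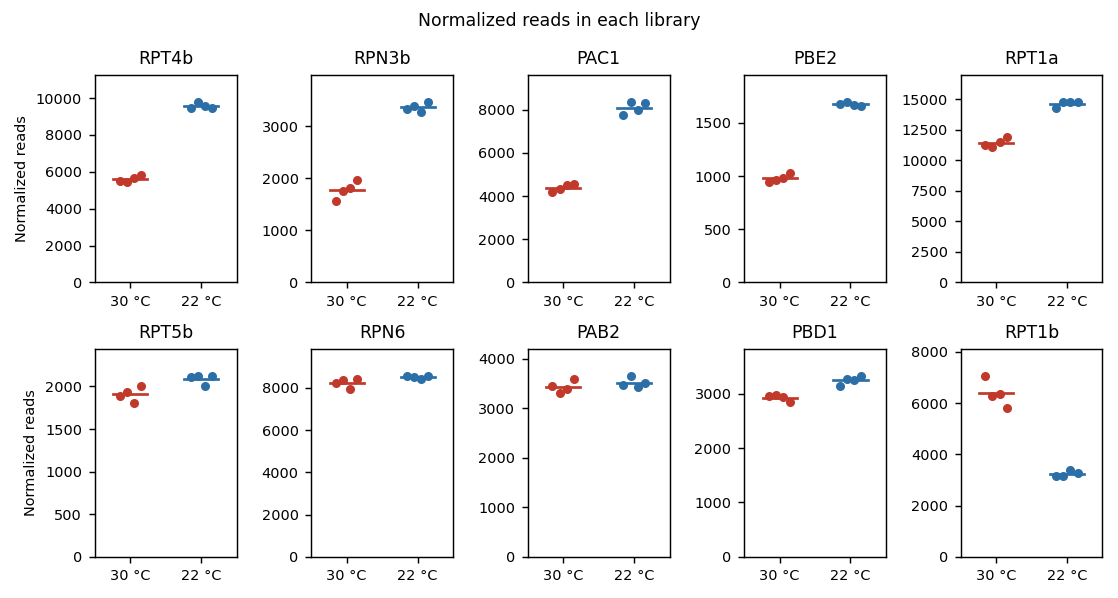
Normalized reads (y axis, from 0) of the most and the least changed gene of each class and of RPT1a and RPT1b, in the 4 high temperature libraries (30 °C, left) and the 4 control libraries (22 °C, right) of each panel; lines are group means. RPT4b, RPN3b, PAC1 and PBE2 are far below the control in every HT library, RPN6 and PAB2 are near it (above it on the total-sum and quantile scales), and RPT1b is above it in every HT library.

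Core and regulatory genes had near-equal medians. The median log2 fold change was -0.41 for the 23 core genes and -0.45 for the 27 regulatory genes, with SDs over genes of 0.24 and 0.24. Of the core genes 7 were lower past both thresholds and 22 past the adjusted p alone, and of the regulatory genes 9 and 26. Over all genes 17.5% and 35.2% were. To compare levels between subunits, FPKM was summed over those of the 50 genes that encode each position, which leaves out RPT1b, RPN12b and PAC2, treated with the related genes. In HT the median over positions was 154 FPKM for the 14 core positions and 119 FPKM for the 17 regulatory positions, and in CT 196 and 156 FPKM. Within a library the ratio of the core median to the regulatory median was 1.304 ± 0.0059 in HT and 1.261 ± 0.0126 in CT (SD, n = 4 each). The core was the higher in every library, and the ratio did not overlap between the temperatures.

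At all 31 positions every HT library was below every CT library in summed FPKM as deposited. The FPKM sum of all genes did the same, with 549997 to 562405 in HT and 651952 to 659489 in CT. For single genes, 32.7% of all tested had every HT library below every CT library. Over the positions the ratio of HT over CT had a median of 0.724 and ranged from 0.542 at PAC to 0.968 at RPN6. With FPKM rescaled to the same total the median ratio was 0.855, and 6 positions were above 1 (RPN6 1.14, RPT3 1.04, RPN7 1.04, RPT5 1.01, and PBA and PAF by less than 0.001). After PAC the lowest ratios were those of RPN3 (0.578), PBE (0.604), RPN8 (0.607), PBG (0.625) and RPT4 (0.633). The highest after RPN6 were those of RPT3 (0.883), RPN7 (0.877) and RPT5 (0.855). With RPT1b added to RPT1, a choice made after the values were seen, RPT1 had 192 ± 3.6 FPKM in HT and 210 ± 3.6 FPKM in CT (SD, n = 4 each). Its ratio was then 0.913, next after RPN6, and 1.08 with FPKM rescaled to the same total. The HT mean of RPT1 was then the highest of all positions, but above RPN7 and PBB by less than the SDs. Levels of the positions, again over the 50 genes, differed by 2.41-fold between the lowest and the highest in HT and by 2.54-fold in CT. In HT the lowest were RPN3 (78.7 ± 3.4 FPKM), RPT6 (83.8 ± 4.6) and RPN12 (84.1 ± 1.4) and the highest were RPN7 (189 ± 5.3), PBB (189 ± 3.7) and PAA (183 ± 5.6). In CT the lowest were RPN6 (99.8 ± 0.70 FPKM), RPT6 (122 ± 4.2) and RPN12 (127 ± 2.4) and the highest were PAD (253 ± 3.1), PAA (251 ± 0.69) and PBB (237 ± 4.3), each as mean ± SD of 4 libraries. RPT6 and RPN12, and RPN7 and PBB, differed in HT by less than their SDs. RPN6 had the lowest FPKM of all positions in CT and was above RPN3, RPT6, RPN12, PAC and RPN10 in HT.

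**Figure D4:**
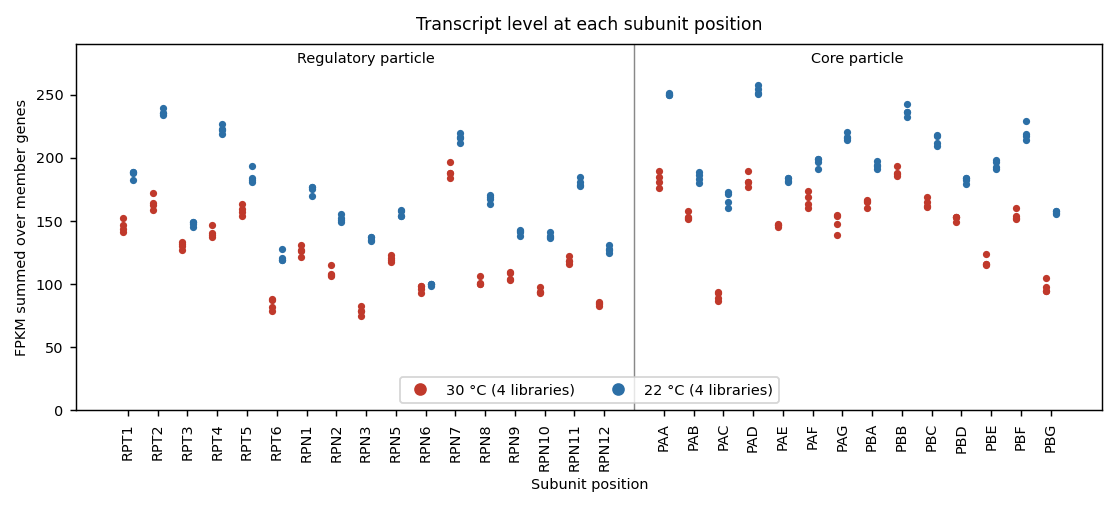
FPKM summed over the genes among the 50 that encode each of the 31 subunit positions (y axis, from 0), with the 4 high temperature libraries left of the 4 control libraries at each position. On the deposited scaling the HT points lie below the CT points at every position, nearly at the same level for RPN6 (ratio 0.968) and farthest below for PAC (ratio 0.542).

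The balance within paralog pairs does not depend on the scaling of a library by a common factor. In 16 of the 19 pairs the log2 ratio of the paralogs differed between the temperatures with the smallest p that the exact two-sided permutation test over 4 against 4 libraries can give (p = 0.0286 each, not adjusted over the 19 pairs). No such count was made for pairs of other genes. Of all genes 35.9% were higher and 35.2% lower at an adjusted p under 0.05, so 16 of 19 cannot be called particular to these pairs. The absolute difference of log2 ratios had a median of 0.24 and a maximum of 0.65. Of these 16 the ratio changed in favour of the less abundant paralog in 9 pairs and of the more abundant in 7. The paralog with the higher FPKM in CT was also the higher in HT in all 19 pairs. The RPT6 pair was even within its SD in CT, where RPT6a held 50.1 ± 1.13% of the FPKM, and RPT6a held 55.1 ± 1.21% in HT.

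In the PAF pair PAF1 supplied 93.9 ± 0.90% of the FPKM in HT, against 90.7 ± 0.46% in CT (SD, n = 4 each), and its log2 ratio to PAF2 differed by 0.65. The minor gene PAF2 became smaller still. In the other pairs with a large shift the major gene lost share. PAD1 made up 59.5, 61.2, 62.5 and 64.3% of its pair in HT, against 71.3, 70.2, 70.7 and 71.3% in CT (difference of log2 ratios -0.58). RPN8a made up 80.8, 82.6, 83.1 and 82.0% in HT, against 87.0, 86.7, 87.7 and 86.8% in CT (-0.55). RPN1a made up 55.1, 55.1, 55.6 and 55.9% in HT, against 63.6, 63.3, 63.0 and 64.5% in CT (-0.49). These shares did not overlap between the temperatures. PAB1 made up 50.6, 53.0, 51.9 and 50.7% in HT, against 58.9, 58.1, 58.8 and 59.3% in CT (-0.42), so that the PAB paralogs were nearly even in HT. PAA1 made up 59.1 ± 0.68% in HT, against 65.5 ± 0.87% in CT (-0.40; SD, n = 4 each).

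Smaller shifts that reached the same p were found for RPT2a over RPT2b (0.35), RPT4a over RPT4b (0.30), RPT6a over RPT6b (0.29), PBD1 over PBD2 (0.24), RPN5a over RPN5b (-0.23), RPN3a over RPN3b (0.20), PBB1 over PBB2 (0.18), RPT5a over RPT5b (-0.12), PBC1 over PBC2 (-0.08) and PBE1 over PBE2 (0.06). The ratio was not distinguished in the exact permutation test for RPN9a and RPN9b (difference 0.08, p = 0.11), RPN2a and RPN2b (0.05, p = 0.20) and PAE1 and PAE2 (0.0045, p = 0.94). The log2 ratio of PAE1 over PAE2 was 0.03 ± 0.06 in HT and 0.03 ± 0.03 in CT (SD, n = 4 each). Coding sequences of the 19 pairs were 80.3 to 94.4% identical, with a longest identical run of 23 to 104 bases, the longest in RPT6a and RPT6b. How reads that fit both paralogs were assigned is not given in the sources used here, and the split is most uncertain for that pair.

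**Figure D5:**
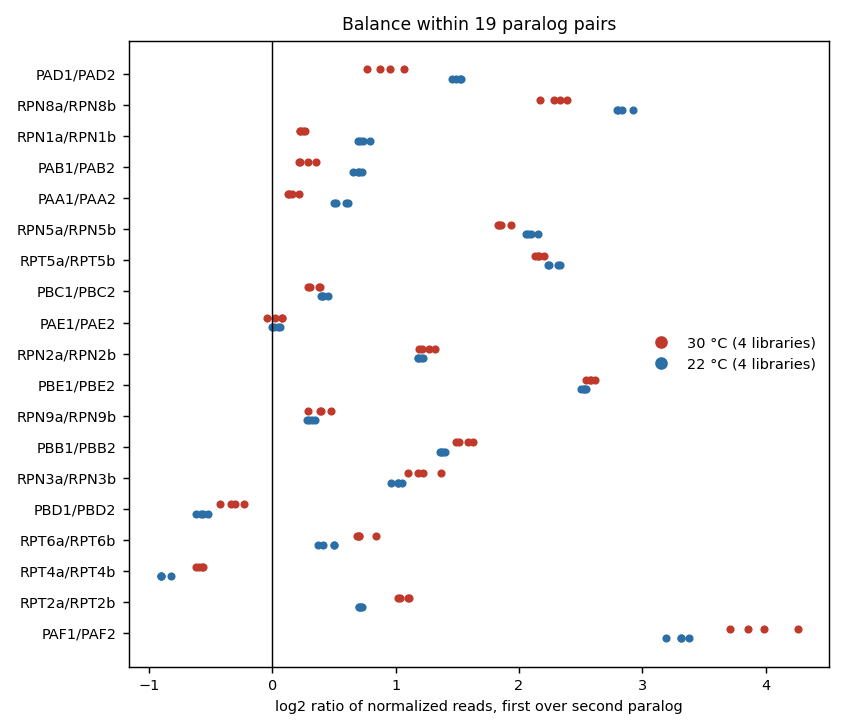
Log2 ratio of normalized reads of the first over the second gene of each of the 19 paralog pairs (x axis), with the 4 high temperature libraries above the 4 control libraries in each row, in order of the difference. PAD1/PAD2 at the top and PAF1/PAF2 at the bottom moved the most, by -0.58 and 0.65, and the points of PAE1/PAE2 overlap.

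Genes that work with the 50 were read from lists of related genes. Of 6 further subunit genes, 2 were lower, against 17.5% of all genes, and 1 was higher, against 20.0% of all genes, at both thresholds. The higher one was RPT1b (AT1G53780), a second RPT1-type gene on the chromosome of RPT1a. RPT1b had 7061, 6289, 6342 and 5817 normalized reads in HT, against 3156, 3157, 3405 and 3274 in CT, a log2 fold change of 0.97 ± 0.049 (SE, adjusted p = 9.4e-11, limma). RPT1a (AT1G53750) had 11278, 11092, 11527 and 11928 in HT, against 14310, 14748, 14773 and 14815 in CT, a log2 fold change of -0.36 ± 0.032 (SE, adjusted p = 6e-08, limma). On the deposited scaling the 2 genes moved in opposite directions with no overlap (RPT1a was at 0.010 under quantile normalization), and RPT1a supplied 76.1 ± 1.86% of their summed FPKM in HT and 88.9 ± 0.30% in CT (SD, n = 4 each). Their coding sequences were 87.4% identical where aligned, with a longest identical run of 66 bases. The small lid subunit genes DSS1(I) (-0.65) and DSS1(V) (-0.76) were lower, but not past the fold threshold under total-sum rescaling (-0.45 and -0.56), nor was DSS1(I) under quantile normalization (-0.50). RPN13, a ubiquitin receptor, PAC2 and RPN12b, the last with a mean of 25.7 normalized reads in HT and 15.8 in CT, did not pass the test.

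Of 6 assembly factors tested, which help to build the core or the base, 0 were higher and 0 lower at both thresholds with limma, edgeR or DESeq2. The counts were the same with an unadjusted p under 0.05 in place of the adjusted one. Of all genes 20.0% were higher and 17.5% lower at both thresholds with limma. Counts of 0 among 6 genes therefore cannot be called particular to assembly factors. Under quantile normalization 1 of them, PBAC4, was lower at both thresholds (-0.60). At the adjusted p alone 4 were lower (UMP1 -0.50, PBAC4 -0.49, NAS2 -0.44 and PBAC3 -0.27), against 35.2% of all genes, and 2 were higher (PBAC2 0.19 and HSM3 0.18), against 35.9% of all genes. A further UMP1-type gene (AT5G38650) was listed at 0 FPKM in all 8 libraries. Of 6 proteasome-binding factors, PTRE1, a PI31-like regulator, was higher at both thresholds (0.79), as were 20.0% of all genes. The others were within the fold threshold, among them the activator PA200 (0.09), the deubiquitinases UBP6 (0.06, adjusted p = 0.066, limma) and UCH2 (-0.56). Among shuttle receptors, RAD23B (-0.81) was lower at both thresholds, and RAD23C was higher at the adjusted p alone (0.16). DSK2b (-0.13) changed sign under total-sum rescaling (0.07) and under quantile normalization (0.03).

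Of 6 genes of the CDC48 segregase, which extracts ubiquitylated proteins from complexes and membranes, CDC48B was higher at both thresholds. It had 5903, 5211, 4676 and 4389 normalized reads in HT, against 582, 491, 633 and 597 in CT, a log2 fold change of 3.13 ± 0.085 (SE, adjusted p = 1.3e-13, limma). The far more abundant CDC48A was lower at the adjusted p alone (-0.37, with the sign changed to 0.04 under quantile normalization), as was NPL4-2 (-0.44). NPL4-1 was higher at the adjusted p alone (0.42) and past both thresholds under total-sum rescaling (0.62). CDC48C (-0.02, adjusted p = 0.73, limma) and UFD1 (0.01, adjusted p = 0.76, limma) did not pass the test. For the factors NAC53 and NAC78 only transcripts were measured, not protein or activity. NAC53 had 3329, 2940, 2933 and 2817 normalized reads in HT, against 1233, 1116, 1147 and 968 in CT (log2 fold change 1.43 ± 0.067 SE, adjusted p = 3.5e-11, limma). NAC78 was higher at the adjusted p alone (0.17). Of all genes 20.0% were higher at both thresholds and 35.9% at the adjusted p alone. Subunit genes with and without TGGGC in the 250 bases had median log2 fold changes of -0.43 (24 genes) and -0.44 (26 genes). The part of these factors or of the element in the subunit changes was not tested.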

How the data were processed

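RNA-seq was done on 4 high temperature and 4 control libraries. Per the labels, poly(A) RNA was made into directional libraries. Alignment with HISAT2 to TAIR10 and normalization with DESeq2 are credited to the submitters' processing notes, which give no versions. No counting program or strand setting is given in the sources used here, and genes that overlap on opposite strands may share reads. The deposited signal values of 23632 genes are counts of reads in each gene that the authors divided by DESeq2 size factors, and 100% of them were whole reads within 0.01 of a read after the step was recovered. The deposited FPKM values of 32833 genes, which also divide by gene length, carry the same scaling between libraries, so FPKM sums differ between libraries.

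Limma 3.58.1 (R 4.3.3), with a trend and no covariate, was run on log2(normalized value + 0.5) for the 21739 genes with a mean of at least 1, with Benjamini-Hochberg adjustment. Fold changes are on this scale. Genes were called at an adjusted p under 0.05 together with a log2 fold change of 0.58 or more in either direction, the thresholds of the study. Paralog ratios were put to exact two-sided permutation tests over 70 arrangements. Alternatives were pseudocounts of 0.1 and 5, no filter and a minimum mean of 10, total-sum and quantile scaling, edgeR 4.0.16 and DESeq2 1.42.0 on the recovered reads, a replicate block, no fold threshold, and each library left out. Replicates are separate pools of seedlings per the methods, and replicate pairs differed by more than sampling noise (mean chi-square per gene 3.28 to 11.57). Per-library values are given for the most and least changed gene of each class, both genes of the 6 pairs that shifted most, RPN6, RPN10, RPN11, RPN12a and PBA1; related genes are named mainly when past the thresholds, and other related genes, and the orders of positions, were chosen after their values were seen. Of the related list, 2 entries whose annotation names no proteasome role were dropped, and the count of shuttle receptors called is not reported here. The members and lists were chosen with earlier results of these data known. Upstream windows and coding sequences were read from RefSeq TAIR10.1 and aligned with Biopython 1.88. P-values measure the difference relative to variation among seedling pools only.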

Additional observations from a re-analysis of the deposited data

Results flagged for a closer look

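In 5 of the 100 groups of 4 libraries looked at (50 genes at 2 temperatures), 1 library stood apart from the other 3 by more than Dixon's 95% critical value, and chance flags about 1 in 20 groups. RPT4a had 3929 normalized reads in HT replicate 4, against 3656 to 3676 in the other HT libraries. PBE1 had 6153 in HT replicate 4, against 5720 to 5791 in the others. RPT1a had 14310 in CT replicate 1, against 14748 to 14815 in the other CT libraries. RPT5a had 10678 in CT replicate 4, against 9929 to 10039 in the others. RPT5b had 2003 in CT replicate 3, against 2109 to 2123 in the others. No call on these 5 genes changed when the library was left out.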

How the results depend on the processing

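Pseudocount, filter, edgeR, DESeq2 and each left-out library gave 15 to 16 subunit genes lower and 0 higher. The scaling mattered more. The count of lower genes was 4 under total-sum rescaling, 6 under quantile normalization, and 48 without the fold threshold, when 7798 of all genes were higher and 7657 lower. Of all calls 69.7% were higher under total-sum rescaling, 53.4% on the deposited scaling and 49.1% under quantile normalization. The median FPKM ratio of positions was 0.855 after rescaling to the same total. Under total-sum rescaling the sign changed for RPN6 (0.16), PAB2 (0.17), PAD2 (0.11), RPT5b (0.074), PBD1 (0.053), RPN1b (0.031), RPT3 (0.024), RPN7 (0.014), PAF1 (0.013) and RPN5b (0.0021). Under quantile normalization it changed for RPN6 (0.23), RPN7 (0.18), RPT3 (0.14), PAB2 (0.11), RPN1b (0.085), PAF1 (0.079), PAD2 (0.040), RPT5a (0.038), PBA1 (0.032) and RPT1a (0.010). The cause of these dependences was not tested. RPN12a was not called by edgeR (-0.58, just above the threshold).

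The number of shifted pairs was 14 under quantile normalization, 15 with a pseudocount of 5 and 16 under total-sum rescaling. With a library left out, the smallest exact p is 0.0571, so pairs whose groups do not overlap were counted, 16 to 17. With the replicate block, 16 subunit genes were lower, 4300 of all genes higher and 3762 lower. For the pairs the block gave 16 whose 4 differences had 1 sign, at a smallest possible p of 0.125. Same-numbered libraries did not deviate together (correlations 0.0031 to 0.0771), so the numbers were not taken to pair the samples. Depth, at least 417 reads per gene and library, was not the limit for any subunit gene.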
